A study of Homo sapiens with 38 samples.

Results

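Transcripts of 50 human genes that build, crosslink, cut or sense the extracellular matrix were followed across 15 deposited tables, each setting 1 compound beside DMSO in a breast cancer cell line. The genes were taken from a fixed list of symbols, with no cut on a value, out of 24463 genes listed in at least 1 table. Earlier results of these data were known when the list was chosen. Each of the 50 was listed somewhere and 32 were listed in all 15 tables. RNA sequencing covered 38 samples of the established lines T47D, T47D-TR and BT-549, with 2 samples in each of 19 groups. Cells of all 3 lines were given the EZH2-directed degrader MS177, 1 of its negative controls (MS177-N1, MS177-N2) or C24, an inhibitor of EZH2's methyltransferase activity, at 2.5 uM for 48 h, beside 0.125% DMSO. T47D-TR cells also received another EZH2 degrader (MS8815), a negative control for it (MS8815-N) or EPZ-6438, an EZH2 inhibitor, at 2.5 uM for 30 h, beside 0.05% DMSO. Whether replicates of a group were separate cultures is not given in the labels, so the p-values measure the spread between these samples, which may be technical.

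The extracellular matrix is a network of collagen fibrils, basement membrane sheets of laminin and type IV collagen, adhesive glycoproteins and proteoglycans. Lysyl hydroxylases and lysyl oxidases crosslink its collagens, matrix metalloproteinases cut it, and tissue inhibitors of metalloproteinases (TIMPs) restrain them. Cells sense collagen through integrins and through the receptor tyrosine kinases DDR1 and DDR2. EZH2 is the histone methyltransferase of the polycomb complex PRC2, which keeps developmental genes silent. In the breast, luminal cells rest on a laminin-rich basement membrane, and mesenchymal-like tumour cells are known for making fibrillar matrix themselves.

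Levels are normalized counts within a table, and differences are of log2(normalized count + 1) with a standard error (SE). A gene passed when its limma p, adjusted over all genes tested in that comparison, was under 0.05, and a fold is a ratio of group means with n = 2. Per library, 32.1 to 49.9 M reads fell on listed genes in T47D and BT-549, and read depth in T47D-TR is unknown. The EZH2 transcript was at 1432 to 1472 normalized counts with DMSO and 1583 to 1856 with MS177 in T47D, at 239 to 255 and 345 to 373 in T47D-TR, and at 2900 to 3051 and 3614 to 3799 in BT-549. A degrader acts on protein, so these levels do not check the labels. The DMSO libraries of T47D and T47D-TR held all 8 luminal epithelial markers at 13599 to 23664 CPM in sum (normalized counts scaled to a common library total), and the list of 7 mesenchymal-like markers, 4 or 5 of them listed, at 2.65 to 6.59. In BT-549 the sums were 690 to 723 and 2660 to 2741. Endothelial markers (PECAM1, CDH5 and VWF) reached at most 0.209 CPM in sum in any line.

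Some libraries stood apart. For T47D, 1 of the MS177-N1 columns duplicates a library of MS177-N2 (its replicate 2) at all 17724 genes the tables have in common. It was counted with MS177-N2, which leaves MS177-N1 a single T47D library. The MS177 libraries of T47D differed from each other, and both are shown throughout. At 30 h, MS8815-N replicate 2 listed 6933 genes (44.3%) at 0, against 160 genes in its partner. MS8815 replicate 1 listed 798 genes (4.93%) at 0, against 278 (1.72%) in replicate 2. The normalized counts of these MS8815 libraries summed to 13.43 M and 9.85 M.

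The sequences just upstream of 4 members are shown as examples from the 10 that were called in the same direction with MS177 in both T47D-TR and BT-549: DDR2, TIMP3 and COL16A1 rose in both, and DDR1 fell in both. Each run gives the 250 bases before the gene's start from RefSeq (GRCh38.p14, matching the hg38 build of the labels), written from 5′ to 3′ on the gene's own strand. Capitals mark matches, on either strand, to any of 5 motifs: a GC box (GGGCGG), an AP-1 site (TGANTCA), a cyclic AMP response element (TGACGTCA), a C/EBP-ATF composite element (TGATGNAA) and a TATA box (TATAAA).
DDR1 (chr6:30880720-30880969, plus strand): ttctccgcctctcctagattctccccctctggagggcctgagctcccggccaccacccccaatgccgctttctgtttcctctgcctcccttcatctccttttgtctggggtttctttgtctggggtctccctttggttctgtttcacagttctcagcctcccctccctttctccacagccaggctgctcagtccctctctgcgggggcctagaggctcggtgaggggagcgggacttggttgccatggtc
DDR2 (chr1:162630613-162630862, plus strand): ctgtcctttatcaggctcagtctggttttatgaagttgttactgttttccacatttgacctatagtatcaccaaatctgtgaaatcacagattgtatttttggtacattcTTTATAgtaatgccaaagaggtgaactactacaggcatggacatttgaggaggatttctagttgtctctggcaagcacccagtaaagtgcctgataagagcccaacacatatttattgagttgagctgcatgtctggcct
TIMP3 (chr22:32801455-32801704, plus strand): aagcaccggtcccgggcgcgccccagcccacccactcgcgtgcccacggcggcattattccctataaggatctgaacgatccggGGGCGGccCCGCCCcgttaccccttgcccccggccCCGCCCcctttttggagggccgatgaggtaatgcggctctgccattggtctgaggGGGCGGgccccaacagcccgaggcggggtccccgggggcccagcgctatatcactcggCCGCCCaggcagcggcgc
COL16A1 (chr1:31704018-31704267, minus strand): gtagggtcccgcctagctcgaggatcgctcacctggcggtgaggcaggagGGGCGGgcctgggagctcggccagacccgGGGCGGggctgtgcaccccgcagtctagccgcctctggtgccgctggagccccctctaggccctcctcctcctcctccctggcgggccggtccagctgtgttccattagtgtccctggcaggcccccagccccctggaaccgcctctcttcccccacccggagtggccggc

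Each window ends at the first base before its gene, which spans chr6:30880970-30900156 for DDR1, chr1:162630863-162787405 for DDR2, chr22:32801705-32863041 for TIMP3 and chr1:31652263-31704017 for COL16A1. DDR2 had no CpG dinucleotide and no GC box in this window, and its single match was a TATA box on the opposite strand. DDR1 held 6 CpG dinucleotides and no match. TIMP3 held 26 CpG dinucleotides and 5 GC boxes, and COL16A1 held 16 and 2. Of 35116 promoters searched in the same way, 42.6% held a GC box, 6.57% an AP-1 site, 1.65% a cyclic AMP response element, 3.14% a composite element and 10.7% a TATA box. Among the 38 members with an entry, 27 held a GC box, 2 an AP-1 site, 1 a cyclic AMP response element, none a composite element and 4 a TATA box. The median CpG count was 14 over these members and 11 over all promoters. A match describes the letters only.

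Before treatment, the lines carried different matrix programs. With DMSO, 41 of 50 members were at or above 1 CPM in both BT-549 libraries, 28 in T47D and 26 in T47D-TR. SPARC, a collagen-binding glycoprotein, stood at 897 and 898 CPM in BT-549, and at 0.470 and 0.626 in T47D. LOXL2, a lysyl oxidase, stood at 676 and 802 in BT-549 and at 0.342 and 0.194 in T47D-TR. The epithelial collagen receptor DDR1 showed the opposite order, with 583 and 543 in T47D, 545 and 615 in T47D-TR and 40.1 and 45.0 in BT-549. LRRC15, a leucine-rich repeat membrane protein, was at 48.6 and 59.9 in T47D-TR but under 1 CPM in both other lines. COL11A1, a minor fibrillar collagen, reached 131 and 137 in T47D-TR and was listed in neither T47D nor BT-549. The heparan 6-O-endosulfatase genes stood lower in T47D-TR than in T47D: SULF1 was 38.0 and 36.7 in T47D and 1.43 and 3.11 in T47D-TR, and SULF2 was 32.6 and 29.1 against 0.521 and 0.997. Tables were normalized separately, so these levels are a description with no test, and levels of different genes are not compared because lengths are not in the tables.

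**Figure D1:**
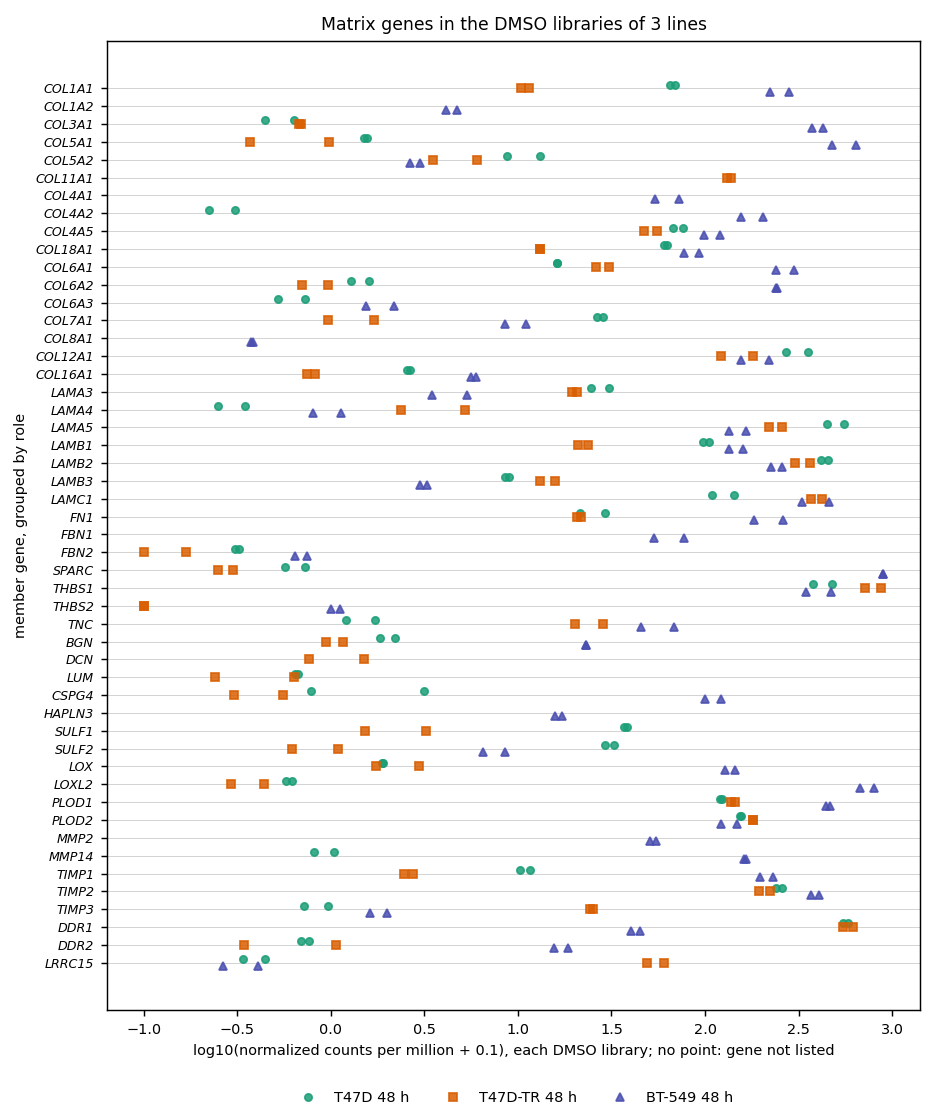
Level of each member in the DMSO libraries of T47D, T47D-TR and BT-549 at 48 h, as log10(CPM + 0.1); 2 points per line, no point where a gene is not listed. BT-549 stands highest for SPARC (897 and 898 CPM) and LOXL2, and T47D-TR for LRRC15 (48.6 and 59.9).

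MS177 was compared with DMSO first, to ask which matrix transcripts the degrader changed in each line. In T47D-TR, 29 of the 34 members tested passed: 15 rose and 14 fell. All genes tested passed at a rate of 54.6% (27.6% higher and 26.9% lower). Of the other members, 9 were not listed and 7 lay under the filter on low values. The median log2 difference was -0.09 over the members tested and -0.0017 over all genes, so the list moved in both directions. Of the members called, COL16A1 and FBN2 passed the filter through their MS177 libraries only and SULF1 through its DMSO libraries only, and without these 13 rose and 13 fell of 31. Others still counted, such as COL5A1, DDR2 and SULF2, reached 10 normalized counts in a single DMSO library. Their passing the filter thus also drew on MS177 libraries. In these bulk libraries, fewer cells with a transcript and less of it per cell cannot be told apart.

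**Figure D2:**
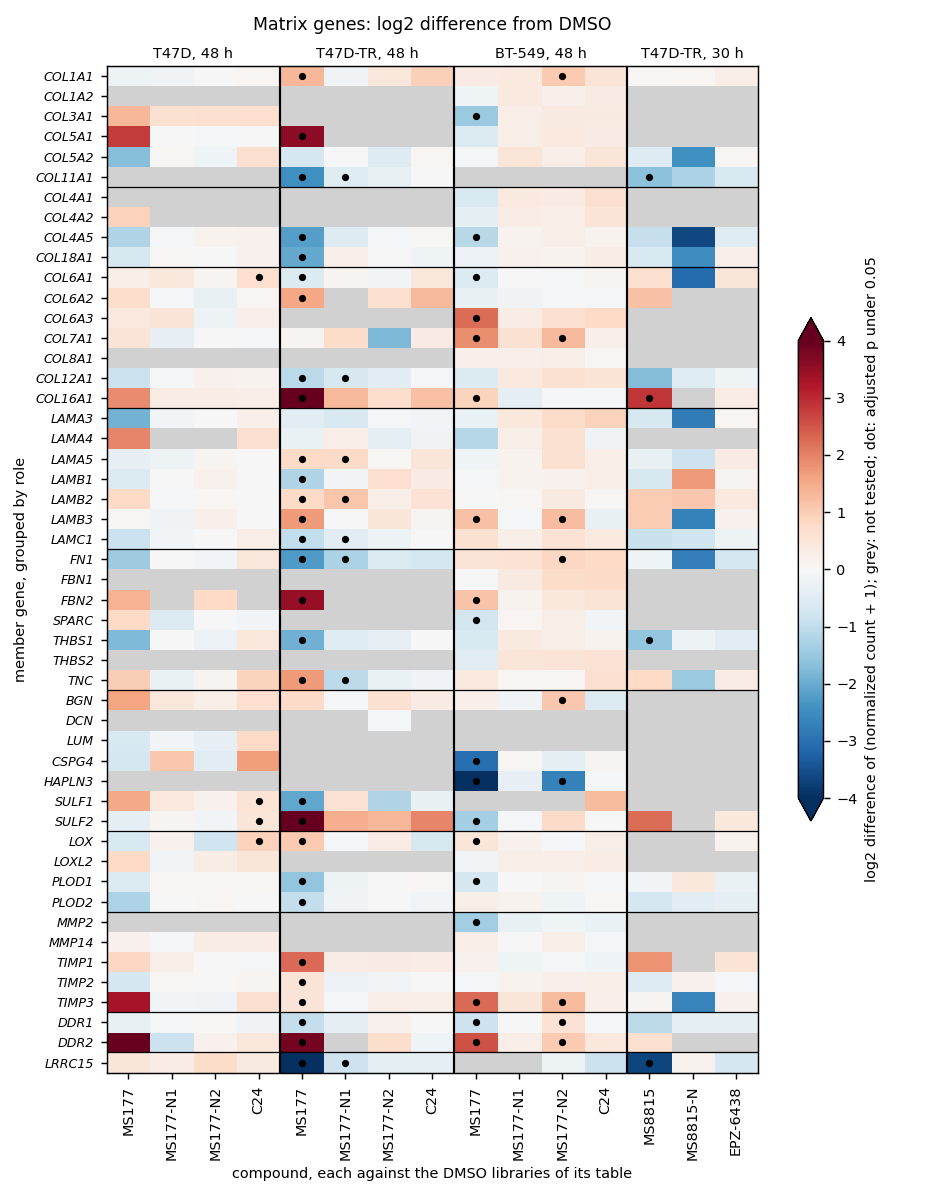
Difference of log2(normalized count + 1) from DMSO for each member (rows, by role) and each of the 15 comparisons (columns); dots mark adjusted p under 0.05 and grey marks members not tested. Calls are densest under MS177 in T47D-TR (29 members) and BT-549 (18 members).

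Among fibrillar collagens in T47D-TR, COL1A1 (the main chain of type I collagen) and COL5A1 (a chain that starts fibrils) rose, COL11A1 fell, and COL5A2 did not pass (adjusted p = 0.177). COL1A1 rose from 137 and 146 normalized counts with DMSO to 387 and 335 with MS177 (2.55-fold, adjusted p = 0.000955). COL5A1 had 11.7 and 3.42 normalized counts with DMSO and 71.7 and 110.0 with MS177. These groups did not overlap, although the DMSO libraries differed widely from each other at such low counts, and the log2 difference was 3.58 ± 0.56 (adjusted p = 0.00229). COL11A1 fell from 1742 and 1752 to 418 and 238, 5.33-fold, with both treated libraries far below both controls (log2 -2.47 ± 0.25, adjusted p = 0.000469). Both basement membrane collagens tested fell: COL4A5 went from 626 and 709 to 125 and 167 (log2 -2.20 ± 0.19, adjusted p = 0.000238), and COL18A1, the source of endostatin, fell 4.10-fold. Of 5 other collagens tested, COL16A1 and COL6A2 rose, COL6A1 and COL12A1 fell, and COL7A1 did not pass. COL16A1, a collagen that associates with fibrils, was at 9.57 and 8.24 with DMSO and 158 and 180.1 with MS177 (19-fold, log2 4.10 ± 0.28). It passed the filter through its MS177 libraries only, so the direction and the lack of overlap were set by the filter.

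Laminin chains split in T47D-TR. LAMB3, a chain of the epithelial laminin-332, rose from 208 and 168 to 598 and 615 (3.23-fold). LAMA5 rose 1.76-fold and LAMB2 1.72-fold. LAMB1 fell 2.25-fold and LAMC1, the widely shared gamma chain, fell 1.97-fold, from 4908 and 5408 to 2571 and 2652. LAMA3 (log2 -0.42 ± 0.16) and LAMA4 (-0.28 ± 0.44) did not pass. Among adhesive glycoproteins, fibronectin (FN1) fell from 287 and 262 to 56.5 and 56.1 normalized counts. Its treated libraries nearly coincided and lay below both controls (4.88-fold, log2 -2.26 ± 0.19, adjusted p = 0.000228). Thrombospondin 1 (THBS1), which activates latent TGF-beta, fell from 9478 and 11185 to 2935 and 2498 (3.80-fold, adjusted p = 0.000123). Tenascin C (TNC), a glycoprotein of remodelled matrix, rose from 267 and 363 to 1185 and 889 (3.29-fold, adjusted p = 0.000863), so the abundant glycoproteins of the line moved in both directions. Fibrillin 2 (FBN2) was near 0 with DMSO (0.908 and 0) and 13.3 and 15.7 with MS177 . It passed the filter only through the MS177 libraries and the fitted difference depends on the pseudocount, so these values are a description.

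The widest rise in T47D-TR was that of SULF2, which trims 6-O-sulfate from heparan sulfate outside the cell. Its libraries read 6.92 and 12.7 with DMSO and 437 and 365 with MS177. All treated values lay more than an order of magnitude above the controls (40.8-fold, log2 5.26 ± 0.33, adjusted p = 8.32e-05). Its paralog SULF1 read 19 and 39.8 with DMSO and 5.70 and 5.86 with MS177 (log2 -2.07 ± 0.50). SULF1 passed the filter through its DMSO libraries only, so its direction was set by the filter and these values are a description. LRRC15 showed the widest fall, from 647 and 765 to 19.8 and 29.7, 28.5-fold with no overlap (log2 -4.80 ± 0.25, adjusted p = 4.59e-05).

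Crosslinking enzymes and collagen receptors each moved in both directions, and the inhibitors in 1. The lysyl hydroxylases PLOD1 and PLOD2 fell 2.97-fold and 1.92-fold in T47D-TR, and the lysyl oxidase LOX rose 2.05-fold from low counts. All 3 inhibitors rose: TIMP1 4.89-fold (from 31.4 and 33.9 to 157 and 162), TIMP2 1.42-fold and TIMP3 1.42-fold. The metalloproteinases MMP2 and MMP14 were not listed in that table. DDR1 fell from 7239 and 7861 to 4119 and 3643, 1.95-fold (adjusted p = 0.000817). DDR2, the receptor for fibrillar collagen in mesenchymal cells, rose from 3.22 and 12.3 to 108 and 102 (log2 3.82 ± 0.56, adjusted p = 0.00174). Marker sums of other cell types differed in the same libraries: the summed fibroblast list, with 2 of 5 genes listed (ACTA2 and THY1) and PDGFRA, PDGFRB and FAP not listed, was 7.16 to 8.56 CPM with DMSO and 31.7 to 34.0 with MS177. The mesenchymal-like list, with 5 of 7 listed, was 4.43 to 4.75 and 10.0 to 12.7. Their part in the member values was not tested.

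In BT-549, 18 of 45 members tested passed with MS177, 8 higher and 10 lower. Among all genes 24% passed, 11.5% higher and 12.6% lower. The members' median log2 difference was -0.11, against 0.01 over all genes. LRRC15 lay under the filter, and COL11A1, DCN, LUM and SULF1 were not listed. Of 5 fibrillar collagens 1 passed: COL3A1, the chain of type III collagen, fell from 14309 and 15726 to 6091 and 4732, with no overlap (2.78-fold, log2 -1.48 ± 0.16, adjusted p = 0.00508). Among other collagens, COL6A3 rose from 56 and 76.9 to 380.4 and 257 (log2 2.23 ± 0.27, adjusted p = 0.0067). COL7A1, which forms the anchoring fibrils under epithelia, rose from 325 and 402 to 1361 and 1279 (log2 1.86 ± 0.15, adjusted p = 0.0028). COL16A1 rose as well, 1.86-fold. These rises left the treated libraries well above the controls, whereas COL6A1, a partner chain of COL6A3, fell 1.46-fold, from 9217 and 10929.7 to 7240.0 and 6535. Of the basement membrane collagens, COL4A5 fell 2.16-fold, and COL4A1 (2082 and 2656 with DMSO, 1806 and 1335 with MS177) and COL4A2 (5970.3 and 7458 and 5905 and 4595) did not pass. The abundant chain COL1A1 read 8608 and 10361 with DMSO and 13197 and 10778 with MS177, its groups apart but its difference under the threshold (log2 0.34 ± 0.16, adjusted p = 0.187).

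Of 7 laminin chains, 1 passed in BT-549, where LAMC1 went from 12724 and 16968 to 27578 and 18389.5 without passing (adjusted p = 0.13). LAMB3 rose from 122 and 106 to 274 and 241 (log2 1.17 ± 0.17, adjusted p = 0.0106). SPARC fell from 34617 and 32994 to 21113 and 19929.8 (1.65-fold) and FBN2 rose 2.24-fold, while FN1 (7005 and 9634 with DMSO, 14499 and 9705 with MS177) did not pass (adjusted p = 0.18). The proteoglycan group held the 2 widest falls of the line. HAPLN3, a link protein that ties hyaluronan to proteoglycans, went from 664 and 574 to 16.8 and 34.9, 24-fold lower (log2 -4.61 ± 0.36, adjusted p = 0.00236). CSPG4, the membrane proteoglycan NG2, went from 3865 and 4464 to 617 and 429.8, 7.96-fold lower (log2 -3.01 ± 0.20, adjusted p = 0.00183). Neither gene's groups overlapped. SULF2 fell here, from 324 and 236 to 107 and 106 (2.62-fold, adjusted p = 0.0115).

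The gelatinase MMP2 fell in BT-549 from 1952 and 1993 to 821 and 702 (2.59-fold, log2 -1.38 ± 0.13, adjusted p = 0.00388), and the membrane protease MMP14 did not pass (6216 and 6063 against 7357 and 7332, adjusted p = 0.131). TIMP3, which binds to the matrix, rose from 72.9 and 56.1 to 335 and 288, 4.82-fold with no overlap (adjusted p = 0.00364). TIMP1 and TIMP2 did not pass (log2 0.18 ± 0.17 and -0.04 ± 0.13). DDR2 rose from 598 and 679 to 4169.6 and 3283 (5.84-fold, log2 2.54 ± 0.16, adjusted p = 0.00171) and DDR1 fell 1.78-fold (adjusted p = 0.0137). LOX rose 1.41-fold and PLOD1 fell 1.58-fold, the former at an adjusted p of 0.0486. Marker sums differed here too: the 5 fibroblast markers, all listed, summed to 446 to 452 CPM with DMSO and 246 to 263 with MS177, and the 7 mesenchymal-like markers to 2660 to 2741 and 2269 to 2557. Their part in the member values was not tested.

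Both lines with many calls have their own DMSO libraries, so their calls rest on separate samples. Of 31 members tested in both, 6 (19.4%) were called higher in each: COL16A1, LAMB3, FBN2, LOX, TIMP3 and DDR2. In T47D-TR, COL16A1 and FBN2 passed the filter through their MS177 libraries only, and DDR2 drew on its MS177 libraries too. Another 4 (12.9%) were called lower in each: COL4A5, COL6A1, PLOD1 and DDR1. Of the 11945 genes tested in both lines, 8.42% were called higher in each and 7.93% lower in each, so nothing particular to the list is read from these counts. SULF2 was the 1 member called in opposite directions, higher in T47D-TR and lower in BT-549, as were 1.17% of genes. Another 8 members rose in T47D-TR and did not pass in BT-549 (18.3% of genes), 7 were lower in T47D-TR with a pass there and a miss in BT-549 (19.1%), COL7A1 rose in BT-549 and did not pass in T47D-TR, and COL5A2, LAMA3, LAMA4 and BGN passed in neither. A pass in 1 line and a miss in the other does not show a difference, which was tested separately: COL12A1, 1 of the 7, was not called in that test.

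**Figure D3:**
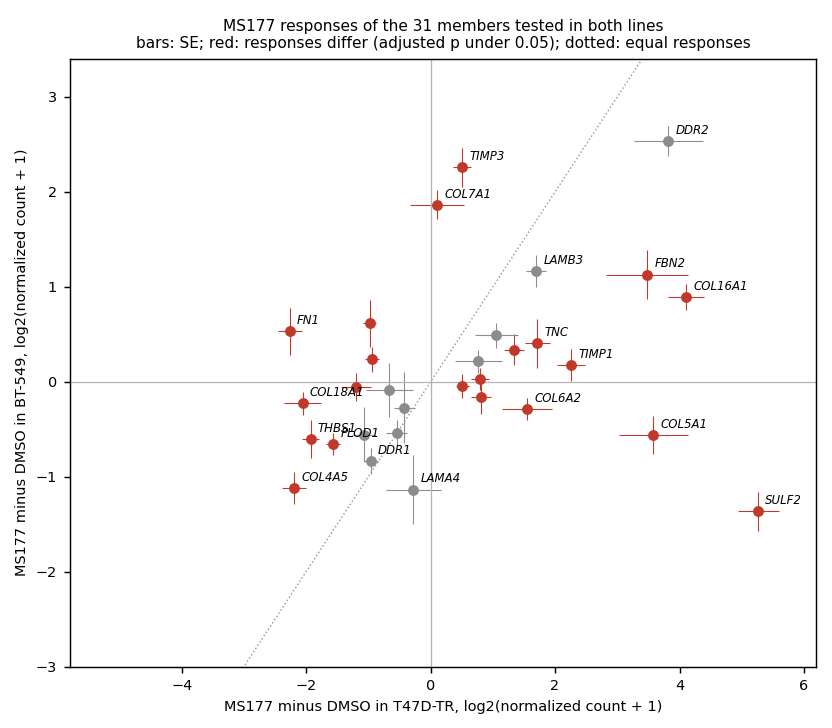
MS177 minus DMSO in T47D-TR (x axis) and BT-549 (y axis), in log2(normalized count + 1), for the 31 members tested in both lines; bars are SE and red marks members whose responses differ. SULF2 sits at lower right, up in T47D-TR and down in BT-549, and DDR2 rises in both.

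A test of the difference between the lines' MS177 responses called 21 of the 37 members that passed the filter over both lines' libraries (30.5% of all genes tested). It was highest for SULF2, at 6.62 ± 0.42 (adjusted p = 8.16e-05), whose treated libraries lay above the controls in T47D-TR and below them in BT-549. COL5A1 differed by 4.15 ± 0.64 (adjusted p = 0.00296), and in BT-549 it read 18366 and 23507 with DMSO and 16118 and 12234 with MS177. COL16A1 rose in each line, from 212 and 216 to 415 and 383 in BT-549, and differed by 3.21 ± 0.27 (adjusted p = 0.000188). FN1 differed by -2.79 ± 0.30 (adjusted p = 0.000632), lower with MS177 in T47D-TR and not below the controls in BT-549. The response of DDR2 differed by 1.28 (95% interval -0.22 to 2.79, adjusted p = 0.175) and that of DDR1 by -0.13 (-0.52 to 0.27, adjusted p = 0.608). Neither passed, and the interval for DDR2 leaves room for a larger rise in T47D-TR.

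In T47D, no member of 41 passed with MS177 in the limma test, nor did any gene (0% of 17370). At an unadjusted p under 0.05 there were 11 members and 3163 genes, and the smallest adjusted p of any gene was 0.117. Of the members, 17 (41.5%) had both treated libraries above both controls, 10 (24.4%) had both below and 14 (34.1%) overlapped. Among the 17370 genes these shares were 27.5%, 28.2% and 44.3%. Of the 17 members, COL4A2, LAMA4 and FBN2 passed the filter through their MS177 libraries only. Their place above the controls was set by the filter, so nothing is read from that share. DDR2 had 22.6 and 20.4 normalized counts with DMSO and 1041 and 1427 with MS177. That is 57.4-fold higher, the widest difference among members in T47D, and it did not pass (log2 5.76 ± 0.33, adjusted p = 0.117). When the spread was estimated over all T47D libraries the same difference gave an adjusted p of 0.00107, and 13 members passed, 8 higher and 5 lower, beside 18.2% of all genes.

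TIMP3 went from 20.9 and 29.6 to 203 and 314 (log2 3.29 ± 0.41, adjusted p = 0.13) in T47D and COL5A1 from 47.7 and 50.02 to 213 and 548 (log2 2.78 ± 0.55, adjusted p = 0.147). Neither passed, though both treated libraries exceeded both controls. On the low side were LAMA3, the alpha chain of laminin-332 (1034 and 834 to 121 and 519, adjusted p = 0.297), THBS1 (16099.8 and 12946 to 1824 and 9713, adjusted p = 0.357) and COL5A2 (443 and 298 to 80.9 and 153, adjusted p = 0.2). For LAMA3 and THBS1 the MS177 libraries lay further from each other than the controls did, and replicate 1 was the lower. Leaving out MS177 replicate 1 gave 18 member calls of 38 (10 higher, 8 lower) beside 50.7% of all genes, and leaving out replicate 2 gave 31 of 37 (14 higher, 17 lower) beside 71.2%. Without either DMSO library 1 was called, beside 0.414% and 0.55% of genes. A lone treated library is then assumed to vary as the DMSO libraries do. The luminal marker sum of these MS177 libraries was 11692 to 20365 CPM, against 13599 to 14150 with DMSO, and its part in the member values was not tested.

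The MS177 responses of T47D and BT-549 differed for 2 of 39 members (1.53% of all genes tested). DDR2 differed by 3.23 ± 0.32 (adjusted p = 0.023), rising in each line from very different starting levels. COL3A1 differed by 2.79 ± 0.36 (adjusted p = 0.0313): it had 11.7 and 18.4 with DMSO and 39.8 and 36.2 with MS177 in T47D, and fell in BT-549. Both calls are lost when any 1 of the DMSO or BT-549 libraries is left out. Without MS177 replicate 1 of T47D 13 members and 14.1% of genes were called, and without its replicate 2 27 members and 46.6% of genes.

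**Figure D4:**
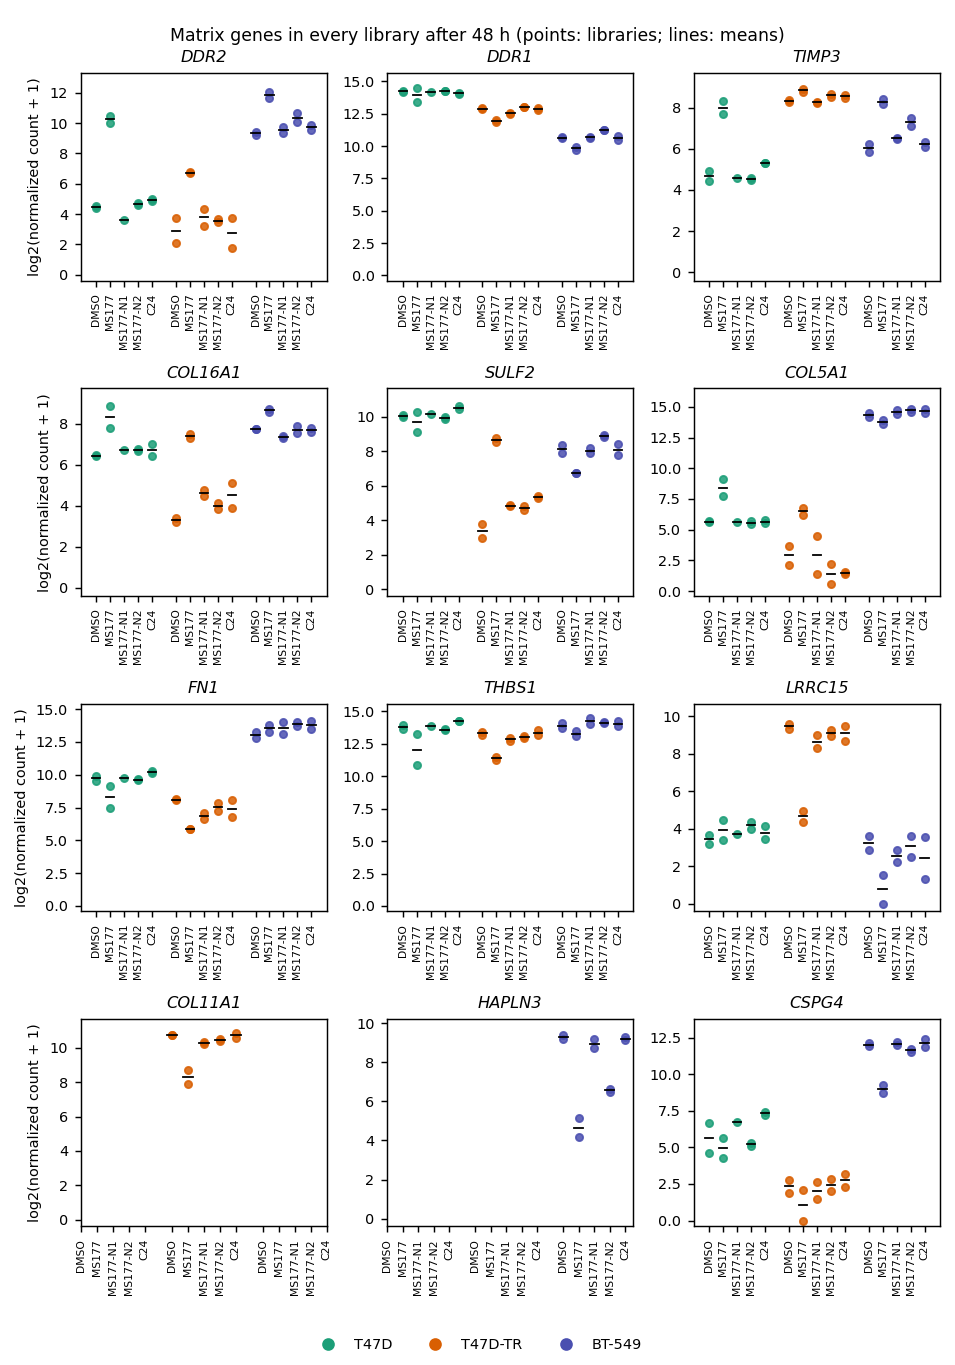
Level of 12 members in every library at 48 h, in log2(normalized count + 1) on the common scale of each line; points are libraries, black lines their mean, and no point means that the gene is not in all tables of the line. DDR2 is higher with MS177 in all 3 lines (1041 and 1427 in T47D, 108 and 102 in T47D-TR, 4169.6 and 3283 in BT-549), and HAPLN3 in BT-549 is low with MS177 and MS177-N2.

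The negative controls and the inhibitor C24 were then set beside DMSO, to ask which members change with them. These comparisons share the DMSO libraries of their line with MS177, so their values are given side by side and no overlap is read from them. MS177-N1 in T47D-TR changed 8 of 30 members (2 higher, 6 lower; 17.3% of all genes passed). LAMB2 rose from 3567 and 2839 to 6015 and 7996 (2.19-fold, log2 1.12 ± 0.18, adjusted p = 0.0107), and LAMA5 from 2069.8 and 2314 to 2919.8 and 4725 (adjusted p = 0.0446). FN1 fell from 217 and 196 to 99.1 and 73.7 (2.39-fold, adjusted p = 0.013), and TNC from 252 and 339 to 159 and 123 (2.10-fold, adjusted p = 0.018). None of these groups overlapped, and TNC rose with MS177 in the same line. COL11A1 fell 1.39-fold, COL12A1 1.60-fold and LAMC1 1.38-fold. LRRC15 fell 1.73-fold with MS177-N1, against 28.5-fold with MS177. No member passed with the spread of all T47D-TR libraries at 48 h or without the mean trend of the variances. All 8 calls were lost without DMSO replicate 2 or without MS177-N1 replicate 2, and 5 or 6 were made without either other library (15.7% and 17.7% of genes).

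MS177-N2 in BT-549 changed 9 of 46 members, 8 higher and 1 lower (2.12% of all genes). HAPLN3 fell from 641 and 553 to 95.7 and 85.2, 6.60-fold with no overlap (log2 -2.71 ± 0.19, adjusted p = 1.22e-06). COL7A1 rose from 314 and 387 to 775 and 968 (log2 1.31 ± 0.18, adjusted p = 0.000707) and TIMP3 from 70.4 and 54.1 to 172 and 133 (log2 1.28 ± 0.25, adjusted p = 0.0133), again without overlap. LAMB3 (2.36-fold), DDR2 (2.12-fold), COL1A1 (2.06-fold), FN1 (1.78-fold) and BGN, the small proteoglycan biglycan (2.15-fold), also rose. DDR1 rose 1.51-fold with MS177-N2 (adjusted p = 0.047) and fell with MS177. The number called was 5 without MS177-N2 replicate 1, and 14 without its replicate 2 or without DMSO replicate 2 (1.03%, 6.71% and 9.05% of genes). Without the mean trend of the variances 1 of the 9 calls is left, and COL7A1 and TIMP3 do not pass (adjusted p = 0.104 and 0.129). TIMP3 does not pass without MS177-N2 replicate 1 (adjusted p = 0.128).

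C24 in T47D raised 4 of 39 members and lowered none (0.574% of all genes). LOX rose from 68.1 and 68.1 to 139 and 123 (1.93-fold, log2 0.93 ± 0.19, adjusted p = 0.0361) and COL6A1 from 606 and 608 to 938 and 997 (1.59-fold, log2 0.67 ± 0.09, adjusted p = 0.00178). SULF1 rose 1.46-fold and SULF2 1.39-fold. The C24 libraries lay above both controls for each of these genes. Without either C24 library 1 member was called (0.153% and 0.171% of genes), and without DMSO replicate 1 14 were (12.1%). None of the 4 passed with the spread of all T47D libraries or without the mean trend.

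No member passed in the 6 other comparisons of these compounds with DMSO. In T47D, MS177-N1 (1 library; 0.0651% of all genes) had 3 members and 2.99% of genes at an unadjusted p under 0.05 in the limma test, and MS177-N2 (0%) had 3 and 5.54%. In T47D-TR, MS177-N2 (0.111%) had 7 members and 5.8% of genes, and C24 (0.014%) had 4 and 1.92%. In BT-549, MS177-N1 (0%) had 3 members and 395 of 16154 genes, and C24 (0.165%) had 14 and 11.3%. For MS177-N2 in T47D, 5 members and 4.86% of genes were called without DMSO replicate 1, and 4 and 2.19% without replicate 2. For MS177-N1 in BT-549, 3 members and 1.29% of genes were called without MS177-N1 replicate 1. For C24 in BT-549, 7 members and 3.74% of genes were called without C24 replicate 2, and 9 and 5.52% without DMSO replicate 2, all these members higher. SULF2 in T47D-TR did not pass with C24 (5.96 and 11 with DMSO, 33.4 and 35 with C24, adjusted p = 1), although the groups did not overlap. The 95% interval of its difference, 0.81 to 3.08, lies above 0, so the miss does not show equal levels.

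MS177 was then compared directly with each of the other 3 compounds at the same dose and time. P-values were adjusted over genes within a pair and not over the 11 pairs made. In T47D-TR, 23 of 35 members differed from MS177-N1 (11 higher with MS177, 12 lower; 50.7% of all genes), 22 from MS177-N2 (10 and 12; 46.3%) and 23 from C24 (9 and 14; 48.1%). SULF2 with MS177 was 14.5-fold the level with MS177-N1 (26.8 and 28.5; log2 3.80 ± 0.31, adjusted p = 1.85e-05) and 15.8-fold that with MS177-N2 (27.5 and 23.2, adjusted p = 1.74e-05). COL5A1 was low with each of them, at 1.55 and 21.8 with MS177-N1 (log2 difference 3.56 ± 1.04, adjusted p = 0.0183), 3.62 and 0.470 with MS177-N2 (5.11 ± 1.04, adjusted p = 0.00347) and 1.95 and 1.57 with C24 (5.03 ± 1.04, adjusted p = 0.00357). At such low counts the size of these COL5A1 differences depends on the pseudocount. The COL5A1 call against MS177-N1 is lost without either MS177 library or MS177-N1 replicate 1 (adjusted p = 0.0575, 0.0959 and 0.112). DDR2 exceeded its level with C24 (2.35 and 12.1) by 4.0 ± 0.75 (adjusted p = 0.00208).

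LRRC15 in T47D-TR kept 502 and 315 normalized counts with MS177-N1, 489.6 and 609.8 with MS177-N2 and 720.2 and 412 with C24, against 19.8 and 29.7 with MS177. No library of the other compounds came near the MS177 pair, and the differences on the log2 scale were -3.98 ± 0.32 against MS177-N1 (adjusted p = 1.77e-05), -4.44 ± 0.32 against MS177-N2 (1.13e-05) and -4.43 ± 0.32 against C24 (1.04e-05). COL11A1 with MS177 was 5.24-fold below its level with C24 (1881 and 1558, adjusted p = 4.36e-05). Decorin (DCN), a small proteoglycan that binds collagen fibrils, was at 1.02 and 0.451 with MS177, 34 and 9.36 with MS177-N1 and 19.6 and 7.05 with MS177-N2. DCN passed the filter only through libraries without MS177 and its calls are lost in several refits, so these low counts are a description, although it is among the 23 and 22 counted. FN1, which fell with MS177-N1 too, did not differ past the threshold between MS177 and MS177-N1 (difference -1.0, 95% interval -1.88 to -0.13, adjusted p = 0.0558). LAMB2 did not either (-0.34, -1.0 to 0.33, adjusted p = 0.369).

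In BT-549, 23 of 46 members differed between MS177 and MS177-N1 (6 higher, 17 lower; 33.1% of all genes), 28 against MS177-N2 (6 and 22; 37.2%, 18 without MS177-N2 replicate 1, beside 23.4%) and 26 against C24 (8 and 18; 35.7%). DDR2 stood at 665 and 863 with MS177-N1, 1646 and 1055 with MS177-N2 and 953 and 757 with C24, all below its 4169.6 and 3283 with MS177. The differences were 2.29 ± 0.23, 1.49 ± 0.23 and 2.12 ± 0.23 (adjusted p = 0.000139, 0.0013 and 0.000187). COL6A3 with MS177 was 3.80-fold its level with MS177-N1 (64.2 and 103, adjusted p = 0.00101) and 3.11-fold that with MS177-N2 (109 and 95.7, adjusted p = 0.00238). TIMP3 exceeded its level with C24 (80.4 and 66.6) by 2.07 ± 0.21 (adjusted p = 0.000116).

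CSPG4 in BT-549 held 4005 and 4679 normalized counts with MS177-N1, 3465 and 2981 with MS177-N2 and 5325 and 3738 with C24. With MS177 it was 8.30-fold, 6.16-fold and 8.66-fold lower (adjusted p = 1.55e-05, 4.5e-05 and 1.26e-05). HAPLN3 was at 577 and 419 with MS177-N1 and 560.1 and 618 with C24, against 664 and 574 with DMSO (log2 -4.28 ± 0.30 and -4.54 ± 0.30 for MS177 against each, adjusted p = 1.55e-05 and 9.62e-06). With MS177-N2 it was between, at 99.2 and 88.3, and MS177 still lay 3.63-fold lower (adjusted p = 0.00128). SULF2 stood at 483 and 451 with MS177-N2, 4.36-fold above MS177 (log2 -2.11 ± 0.24, adjusted p = 0.000229). LAMB3 did not differ past the threshold between MS177 and MS177-N2 (difference -0.07, 95% interval -0.49 to 0.35, adjusted p = 0.802), nor did FN1 (-0.31, -1.06 to 0.43, adjusted p = 0.489).

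In T47D, MS177 exceeded MS177-N1 in 3 of 39 members and fell below it in none (8.56% of all genes). MS177-N1 has 1 library here, assumed to vary like the other groups, so its values have no replicate check. Against MS177-N2 6 were higher and 5 lower (16.7%), and against C24 6 and 6 (19.3%). DDR2 was at 11.4 with MS177-N1, 25.2 and 23.3 with MS177-N2 and 30.8 and 28.4 with C24, so that no other library exceeded 30.8 (log2 6.62 ± 0.30, 5.60 ± 0.24 and 5.32 ± 0.24, adjusted p = 0.00356, 0.00115 and 0.00124). TIMP3 was 11.3-fold its MS177-N1 level (22.8, adjusted p = 0.00889) and 11.5-fold its MS177-N2 level (21.7 and 23.3, adjusted p = 0.0028), and COL5A1 was 7.72-fold its C24 level (53.2 and 45.4, adjusted p = 0.0109). COL5A2 lay 2.74-fold below MS177-N2 (299.6 and 341, adjusted p = 0.0342) and 4.90-fold below C24 (555 and 591, adjusted p = 0.00866). PLOD2 lay 2.44-fold below MS177-N2 (5509 and 5630.1, adjusted p = 0.0188), and lumican (LUM) 2.73-fold below C24 (32.7 and 34.1, adjusted p = 0.0476). These calls lean on the spread of all 9 T47D libraries: with the compared libraries alone 1, 0 and 0 members passed. Leaving out MS177 replicate 1 or 2 gave 19 and 29 calls against MS177-N1 (53.9% and 69.5% of genes), 22 and 26 against MS177-N2 (55.8% and 74.4%), and 23 and 32 against C24 (57.3% and 75.1%). Leaving out a library of MS177-N2 or C24 left 1 call in its comparison, and at most 0.837% of genes.

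The second degrader, MS8815, was studied in T47D-TR after 30 h, at another time and beside other DMSO libraries than MS177. Of 27 members tested, 1 rose and 3 fell (5.19% of all genes). COL16A1 rose from 10.9 and 11 to 85.3 and 85.4, 7.80-fold, with replicates almost equal in each group (log2 2.85 ± 0.36, adjusted p = 0.0351). LRRC15 fell from 1070.0 and 1288 to 149 and 56.1, 11.5-fold (log2 -3.67 ± 0.50, adjusted p = 0.0391), and COL11A1 from 1673 and 1725 to 529.6 and 557, 3.13-fold (log2 -1.64 ± 0.19, adjusted p = 0.0351). Both treated libraries were below both controls in each case, and THBS1 also fell, 2.89-fold (adjusted p = 0.041). At 48 h with MS177, a different time, the log2 differences of COL16A1, LRRC15, COL11A1 and THBS1 were 4.10, -4.80, -2.47 and -1.93. At 30 h with MS8815 they were 2.85, -3.67, -1.64 and -1.53. The direction of COL16A1 at 48 h was set by the filter, which it passed through its MS177 libraries only. FN1 and DDR2 did not pass with MS8815: FN1 was 85.5 and 76.8 with DMSO and 83.9 and 61.7 with MS8815, and DDR2 was 2.33 and 13.4 with DMSO and 7.29 and 13.3 with MS8815. SULF2 was 2.29 and 9.16 with DMSO and 21.5 and 31.7 with MS8815 (adjusted p = 0.137). It passed the filter through its MS8815 libraries only, which set the groups apart, so these values are a description. Without either DMSO library 1 member was called (1.05% and 0.918% of genes), and without MS8815 replicate 1 or 2 there were 15 and 17 (44.9% and 56.5%). None passed with the spread of all T47D-TR libraries at 30 h, which include MS8815-N replicate 2, with 44.3% of genes at 0. The summed luminal markers, all 8 listed, were at 22514 to 23664 CPM with DMSO and 10578 to 12572 with MS8815, and their part in the member values was not tested.

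**Figure D5:**
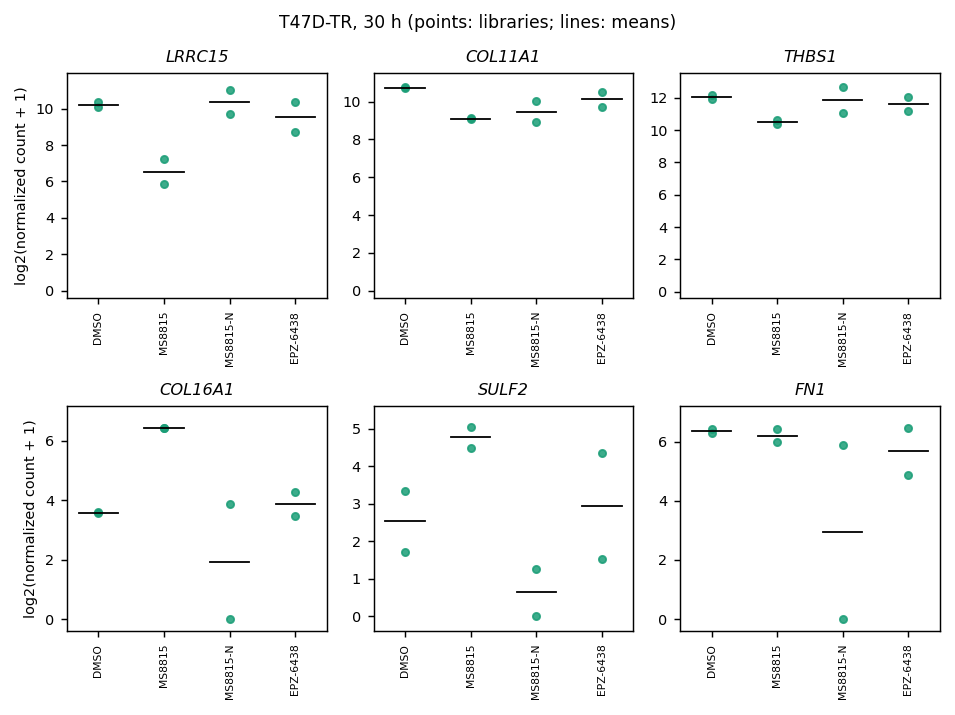
Level of 6 members in each T47D-TR library at 30 h, in log2(normalized count + 1) on a common scale; points are libraries and black lines their mean. LRRC15 and THBS1 are lowest with MS8815 (149 and 56.1 for LRRC15), and the point at 0 of COL16A1 with MS8815-N is replicate 2, which lists 44.3% of genes at 0.

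MS8815-N and EPZ-6438 changed no member past the threshold at 30 h (0% of 11534 and 0% of 13548 genes). In the limma test at an unadjusted p under 0.05, 1 member and 289 genes stood out for MS8815-N, and no member and 184 genes for EPZ-6438. Under MS8815-N the median difference of all genes was -0.24, and that of the 22 members tested -0.81. Without its replicate 2 the fit called 12 members (2 higher, 10 lower) and 39.7% of genes, and without replicate 1 19 members and 78.3%. Without EPZ-6438 replicate 1 it called 12 members and 38.1% of genes. LRRC15 had 1289.7 and 1558 with DMSO and 1556 and 508 with EPZ-6438, a difference of -0.67 (95% interval -2.07 to 0.73).

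No member of 30 differed past the threshold between MS8815 and MS8815-N (0.0574% of all genes; 5 members and 1862 genes at an unadjusted p under 0.05) or between MS8815 and EPZ-6438 (0.108%; 2 members and 1156 genes). The LRRC15 difference between MS8815 and EPZ-6438 was -3.0 with a 95% interval of -4.68 to -1.31 (adjusted p = 0.266). Its libraries read 149 and 56.1 with MS8815 and 1288 and 421 with EPZ-6438. The spread used for both pairs is that of all libraries at 30 h. These include MS8815-N replicate 2, with 44.3% of genes at 0, also where MS8815 is set against EPZ-6438. A miss of the threshold here does not show that the compounds act alike. Without MS8815-N replicate 1 the comparison with MS8815-N called 23 members and 56% of genes, and without its replicate 2 no member and 0.532%. The median difference of all genes between MS8815 and MS8815-N was 0.52, and member differences in that pair are to be read against it.

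Other genes of the same pathways were counted from lists of known function, to be read against all genes tested, of which 54.6% passed with MS177 in T47D-TR and 24% in BT-549. Of collagen folding and processing genes, 6 rose and 7 fell among 20 tested with MS177 in T47D-TR, and 1 rose and 6 fell among 24 in BT-549. Integrins, the other collagen and laminin receptors, rose in 2 cases and fell in 5 of 13 in T47D-TR, and in 2 and 5 of 18 in BT-549. Of TGF-beta ligands, receptors, SMADs and known targets, 9 rose and 9 fell of 20 in T47D-TR, and 6 and 5 of 21 in BT-549. Other matrix proteases and inhibitors gave 8 rises and 3 falls of 18 in T47D-TR, and 8 and 5 of 25 in BT-549. Their median log2 differences were 0.34, -0.0023, 0.04 and 0.53 in T47D-TR, in that order, and -0.33, -0.17, 0.03 and -0.16 in BT-549. The medians over all genes were -0.0017 and 0.01. None passed with MS177 in T47D.

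Some members lie next to each other in the genome, by RefSeq positions on GRCh38.p14. COL4A1 and COL4A2, the chains of the main type IV collagen, stand 126 bases apart on chromosome 13. Neither passed against DMSO in BT-549, but both were lower with MS177 than with each other compound: against C24, COL4A1 by -1.25 ± 0.21 (adjusted p = 0.00166) and COL4A2 by -0.87 ± 0.18 (adjusted p = 0.0052). COL6A1 and COL6A2, 93063 bases apart on chromosome 21, were called in opposite directions in T47D-TR, where COL6A1 fell 1.46-fold and COL6A2 rose 3.09-fold. The rise of COL6A2 started from a low level, 0.865 and 0.601 CPM with DMSO. COL3A1 and COL5A2 are 19151 bases apart on chromosome 2, and in BT-549 COL3A1 fell and COL5A2 did not pass (log2 -0.09 ± 0.28). Exons of 14 members overlap those of another gene in GENCODE v29, on either strand, by at most 9.01% of their exon bases (TIMP2). Whether counting used strand is not given in the sources used here.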

How the data were processed

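RNA from 38 samples (30 at 48 h, 8 at 30 h) was extracted with RNeasy and sequenced from NEBNext Ultra II libraries, per the labels' protocols. The authors deposited 15 tables of log2 values, each with 2 DMSO and 2 treated columns and 15648 to 18573 genes. RSEM, DESeq and hg38 are named without versions in the submitters' processing notes. Each deposited table has 1 lowest log2 value, shared by its 4 columns, as a variance-stabilizing transform gives at a count of 0, and each table was treated as such: normalized counts were computed back from it. In T47D and BT-549 these came out as whole reads (within 0.05 of a whole number for 100% of values below 1000 reads), and in T47D-TR for 8.17 to 16.3%. No column lacked a sample.

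Differences were tested with limma 3.58.1 (R 4.3.3) on log2(normalized count + 1), two-sided, with a mean trend, robust variance and Benjamini-Hochberg adjustment at 0.05, over all genes that reached 10 normalized counts in 2 or more libraries. The 15 comparisons with DMSO were fitted within a table. The 11 comparisons between compounds were fitted over all libraries of a line and time, put on 1 scale through their shared DMSO libraries, with a single factor for each T47D or BT-549 table and a factor for each gene in T47D-TR. The 2 comparisons of MS177 responses were fitted over the DMSO and MS177 libraries of both lines. The fit was tested on simulated counts whose replicates were equally variable, so uneven replicates were not covered.

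Per-library values are given for 10 members of each comparison of MS177 with DMSO, those past the threshold that rose or fell most, 5 each way (where none passed, the 3 and 3 largest with groups apart), for the 2 and 2 largest with each other compound and in each pair, and for the 4 largest differences between responses; other members with values were chosen after these were seen. The members and lists were chosen with earlier results of these data known. Levels in DMSO are normalized counts scaled to a common library sum (CPM).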

Additional observations from a re-analysis of the deposited data

Results flagged for a closer look

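The responses to MS177 (MS177 minus DMSO, in log2 of normalized count + 1) differed between T47D-TR and BT-549 past the adjusted threshold of the limma test for 21 members. The response was higher in T47D-TR for SULF2 by 6.62, COL5A1 by 4.15, COL16A1 by 3.21, FBN2 by 2.35 (at 0.908 and 0 with DMSO in T47D-TR, so this value depends on the pseudocount), TIMP1 by 2.08, COL6A2 by 1.84, TNC by 1.31, COL1A1 by 1.00, LAMA5 by 0.96, LAMB2 by 0.76 and TIMP2 by 0.55. It was lower there for PLOD1 (-0.91), COL4A5 (-1.08), LAMB1 (-1.14), PLOD2 (-1.18), THBS1 (-1.32), LAMC1 (-1.60), TIMP3 (-1.76), COL7A1 (-1.76), COL18A1 (-1.83) and FN1 (-2.79). PLOD1 and COL4A5 fell in each line and TIMP3, COL16A1 and FBN2 rose in each. COL16A1 and FBN2 passed the filter in T47D-TR through their MS177 libraries only.

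Between T47D and BT-549 the responses of 2 members differed: DDR2 by 3.23 and COL3A1 by 2.79. Both calls were lost without any 1 of the DMSO libraries of either line or the MS177 libraries of BT-549.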

How the results depend on the processing

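The counts of members called with MS177 against DMSO in T47D-TR (29) and BT-549 (18) stayed within 1.5 times under every alternative but crossed pairing in BT-549, with 22 to 26 and 16 to 22 calls when 1 library was left out. Low counts moved more. The counts in this section are of members alone, without the shares of all genes. Nothing particular to the list is read from them. Leaving out 1 library gave 1 to 31 calls for MS177, 0 to 5 for MS177-N2 and 1 to 14 for C24 in T47D, and 0 to 6 for MS177-N1 in T47D-TR. It gave 0 to 3 for MS177-N1, 5 to 14 for MS177-N2 and 0 to 9 for C24 in BT-549. At 30 h it gave 1 to 17 for MS8815, 0 to 19 for MS8815-N and 0 to 12 for EPZ-6438. For the T47D comparisons of MS177 with MS177-N1, with MS177-N2 and with C24 it gave 19 to 29, 1 to 26 and 1 to 32, against MS177-N2 in BT-549 18 to 28, and for MS8815 against MS8815-N 0 to 23. For the response of T47D against BT-549 it gave 0 to 27.

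Without the mean trend, calls went to 0 for C24 in T47D, 0 for MS177-N1 in T47D-TR, 1 for MS177-N2 in BT-549 and 2 for MS8815. With the spread of all libraries of a line and time they went to 13 for MS177 and 0 for C24 in T47D, 0 for MS177-N1 in T47D-TR and 0 for MS8815. With the compared libraries alone, the T47D comparisons of MS177 with MS177-N1, with MS177-N2 and with C24 gave 1, 0 and 0. Without the filter, MS177-N1 in T47D-TR gave 5. The deposited scale, quantile scaling and a pseudocount of 5 moved no count of members by more than 1.5 times. The causes were not tested.

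Replicate numbers are shared between groups, but the labels do not say that a number marks a shared batch. Correlations of same-numbered deviations ran from -0.355 to 0.379. With 2 libraries a group they cannot settle whether the numbers pair the samples, and the main fits treat the samples as unpaired. With the replicate block, calls were 5 for MS177 and 9 for C24 in T47D, 16 for MS177-N1 and 3 for C24 in BT-549, 5 and 7 for MS177 against MS177-N2 and C24 in T47D, 1 for MS8815 against MS8815-N, and 13 and 0 for the responses of T47D-TR and T47D against BT-549. Where the correlation was under -0.1, pairing the numbers crosswise, an alternative chosen after seeing the data, gave 10 calls for MS177 in T47D and 35 for MS177, 28 for MS177-N2 and 18 for C24 in BT-549. These paired counts also stand without their shares of all genes, so nothing particular to the list is read from them. No paired analysis was possible for MS177-N1 in T47D, which has 1 library, or against DMSO at 30 h, where the numbers differ.

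Of the members named by size, leaving out 1 library kept the side of the threshold in 263 refits, gained a call in 14 and lost it in 49; none of those losses was of MS177 against DMSO in T47D-TR or BT-549. No direction reversed. With 2 libraries a group, a missed threshold says little, and the depth of T47D-TR is unknown.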
